A study of Homo sapiens with 27 samples.

Results

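Ribosome biogenesis genes encode the proteins that transcribe ribosomal RNA, modify and cut it, and assemble it with ribosomal proteins into the 40S and 60S subunits. A list of 38 such genes was followed in 3 human cancer cell lines kept at ambient oxygen, in chronic hypoxia or in cycling hypoxia. The list holds genes of known function, chosen with earlier results of these data known. A gene was read where at least 1 probe set of the array carried its symbol and no other, which held for 33 of the 38 genes and for 71 probe sets. NOP56, DKC1, BOP1 and PPAN had only probe sets that also carried other symbols, and GNL3 had none under its symbol, so these 5 genes were not read. The array held 19775 genes with a probe set of their own. Of these, 9406 averaged at least 5 on the log2 scale, a level chosen here to leave out dim genes, and all 33 genes read were among them.

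The lines were established cancer cell lines: PC-3 from prostate cancer, SK-OV-3 from ovarian cancer and WM793B from melanoma. Each was cultured for 72 h with no other agent, and each line and condition had 3 arrays (Human Genome U133 Plus 2.0) from cultures called biological replicates, 27 in all. Control cultures stayed at 21% oxygen and chronic hypoxia meant a constant 1% oxygen. In cycling hypoxia, spells of 4 h or 12 h at 1% oxygen were each followed by 4 h at 21% oxygen. The schedule ended with 4 h at 21% oxygen, whereas chronic cultures stayed at 1%, so cycling and recent reoxygenation cannot be told apart. The lines had different media, and WM793B cells received less serum, with insulin and calcium added, so line and medium cannot be told apart.

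Ribosome production begins in the nucleolus, where RNA polymerase I copies the ribosomal DNA into a long precursor. Small nucleolar ribonucleoproteins of the box C/D and box H/ACA classes guide methylation and pseudouridylation of this precursor. The small subunit processome folds and cleaves it toward the 40S subunit, and a separate chain of assembly factors builds the 60S subunit. The process takes a large share of the energy of a growing cell, and many of its genes are known targets of MYC, a transcription factor that binds the E-box sequence CACGTG.

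The arrays were checked against their labels. Of 7 genes of the hypoxia response that were read, 6 rose in chronic hypoxia in the PC-3 and WM793B lines and 7 in the SK-OV-3 line, ADM (adrenomedullin) by 4.33 (PC-3), 4.13 (SK-OV-3) and 2.29 (WM793B) on the log2 scale. The epithelial gene EPCAM averaged 11.64 and 11.59 in control PC-3 and SK-OV-3 cells and 3.43 in WM793B cells. WM793B cells expressed the neural crest genes SOX10 (10.43) and S100B (11.32), while the pigment genes MLANA, PMEL and TYR lay at the lowest value of the array, 2.28. MITF, a melanocyte regulator, read 8.38 there but also 9.26 in SK-OV-3 cells. Several of these markers changed in chronic hypoxia. Of 6 epithelial genes, 4 rose in SK-OV-3 cells, KRT19 (keratin 19) by 2.03, while in PC-3 cells KRT18 and EPCAM fell by 0.47 and 0.38 and KRT19 rose by 0.50. In WM793B cells S100B fell by 1.18, alone of 6 melanocyte genes, and the dim KRT8 rose by 0.47. Of 5 leukocyte and endothelial genes PECAM1 rose in PC-3 cells, by 0.99, and none was called in the other lines. Probe sets for 18S ribosomal RNA ranged from 4.89 to 12.65 over the arrays. In PC-3 cells they read 10.15, 10.21 and 10.38 in controls, 10.04, 10.71 and 11.03 in chronic and 7.42, 7.25 and 9.73 in cycling hypoxia. In SK-OV-3 cells they read 10.28 to 12.11 in controls and 12.26 to 12.65 in chronic hypoxia, without overlap, and 10.62 to 12.63 in cycling hypoxia. The difference between 3′ and 5′ probe sets of ACTB, a sign of RNA quality, was 0.82 to 0.86 in control and 0.68 to 0.74 in chronic PC-3 cells, while it overlapped between these groups in the other lines, as did that of GAPDH in each line. The part of the markers and of these measures in the results was not tested. Arrays were normalized to each other, so a lower value means a smaller share of the labelled RNA, and fewer expressing cells cannot be told apart from less RNA per cell.

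Under chronic hypoxia most of these genes fell in PC-3 cells, and fewer fell in the other lines. In PC-3 cells 30 of the 33 genes were lower than in controls and 1 was higher at an adjusted p under 0.05 (limma, Benjamini-Hochberg adjustment over all probe sets). Among the 9406 genes 41.2% were lower and 24.7% higher. The median log2 difference of the 33 genes was −0.91, against −0.15 for the 9406 genes. Of the 33 genes 14 fell at least 2-fold, as did 1119 of the 9406 genes. In SK-OV-3 cells 13 were lower and 1 was higher, with 25.7% and 20.3% of all genes, and the median was −0.37 against −0.06. The number called there, 14 in all, was 9 without control replicate 2. In WM793B cells 14 were lower and 1 was higher, with 19.3% and 15.5% of all genes, and the median was −0.29 against −0.04. The genes that rose were TAF1D in PC-3, FBL in SK-OV-3 and PES1 in WM793B cells.

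In PC-3 cells the middle of all genes was shifted as well. With each array centred on the median of these 9406 genes, 37.3% of all genes were higher and 37.2% lower in chronic hypoxia, while 29 of the 33 genes were lower and 2 higher with a median of −0.76. The same centring gave 26.4% of all genes higher and 27.2% lower between cycling and chronic hypoxia in PC-3 cells, with 20 of the 33 genes higher, 1 lower and a median of 0.41.

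Cycling hypoxia left smaller differences from control, and their direction varied with the line. In PC-3 cells 18 genes were lower and 1 was higher, with a median of −0.35, where 24.3% of all genes were lower and 21.1% higher. In SK-OV-3 cells 7 were higher and 1 was lower, with a median of 0.16, where 15.7% of all genes were higher and 14.4% lower. In WM793B cells 5 were lower and none was higher, with a median of −0.17, where 4.71% of all genes were lower and 6.22% higher. The SK-OV-3 count, 8 in all, was 5 without any one of the 3 cycling arrays. The WM793B count was 2 without any one of its cycling arrays or without control replicate 1 or 2, and 3 without chronic replicate 2.

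**Figure D1:**
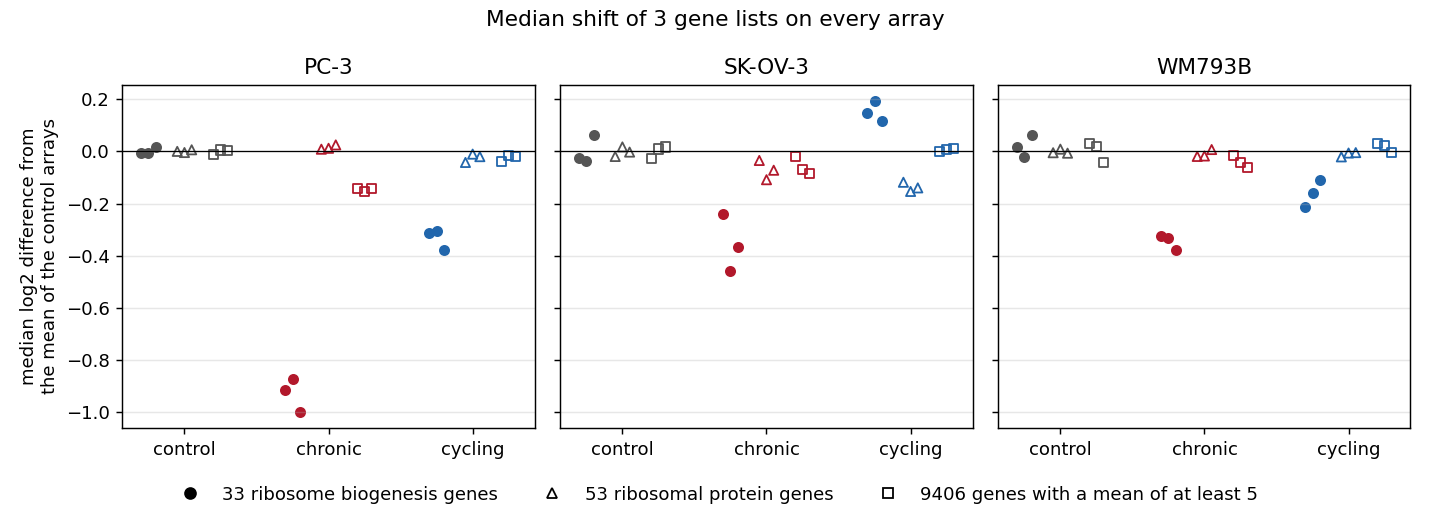
Median log2 difference of 3 gene lists on each of the 27 arrays from the mean of the control arrays of the same line, for the 33 ribosome biogenesis genes (filled circles), 53 ribosomal protein genes (triangles) and the 9406 genes with a mean of at least 5 (squares). The ribosome biogenesis genes lay lowest on the PC-3 chronic arrays, at −0.87 or below, and above 0 on the SK-OV-3 cycling arrays, at 0.15, 0.20 and 0.12.

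Compared directly, many of the genes were higher in cycling than in chronic hypoxia. In PC-3 cells 23 were higher and 1 was lower, with a median of 0.53, where 28.5% of all genes were higher and 10.2% lower. The SK-OV-3 line had 17 that were higher and none lower, with a median of 0.59, where 16.4% of all genes were higher and 11.2% lower. In WM793B cells 8 were higher and none lower, with a median of 0.17, where 5.22% of all genes were higher and 3.63% lower. This comparison and those with control share arrays, so the 3 are not independent of each other. The WM793B arrays of one replicate number deviated together, and with that number as a block 5 of the 8 genes were called, namely WDR3, LTV1, WDR12, NOP16 and MRTO4. Without the block, the WM793B count was 3 without cycling replicate 1 or 2, 4 without chronic replicate 2, and 5 without cycling replicate 3, chronic replicate 1 or control replicate 2. It split into 5 higher and 1 lower after another quantile normalization, and into 6 higher and 1 lower after centring on the 9406 genes. With an intensity trend and robust variances no gene was called in either WM793B cycling comparison.

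In all 3 lines 9 of the genes were lower in chronic hypoxia, as were 6.70% of all genes: NOP58, NHP2, BYSL, PNO1, LTV1, WDR12, RRS1, RRP1B and NOP16. For 6 of the 9 the size of the response still differed between the lines, where 68.9% of all genes differed. Another 12 were called lower in PC-3 cells and not in the other lines (18.2% of all genes). For 10 of these 12, which were picked by their calls, the difference between lines was itself called. RRP9, among the 10, read 5.08 to 5.36 in control SK-OV-3 and 5.36 to 5.37 in control WM793B cells. These are low values, so a fall of RRP9 in those lines could not be judged. In the step from chronic to cycling hypoxia 6 genes were higher in all 3 lines (1.31% of all genes): UTP15, PNO1, LTV1, WDR12, RRS1 and NOP16. With the replicate number as a block, UTP15, PNO1 and RRS1 were not called in WM793B cells (adjusted p = 0.129, 0.106 and 0.0725, limma), which leaves LTV1, WDR12 and NOP16.

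**Figure D2:**
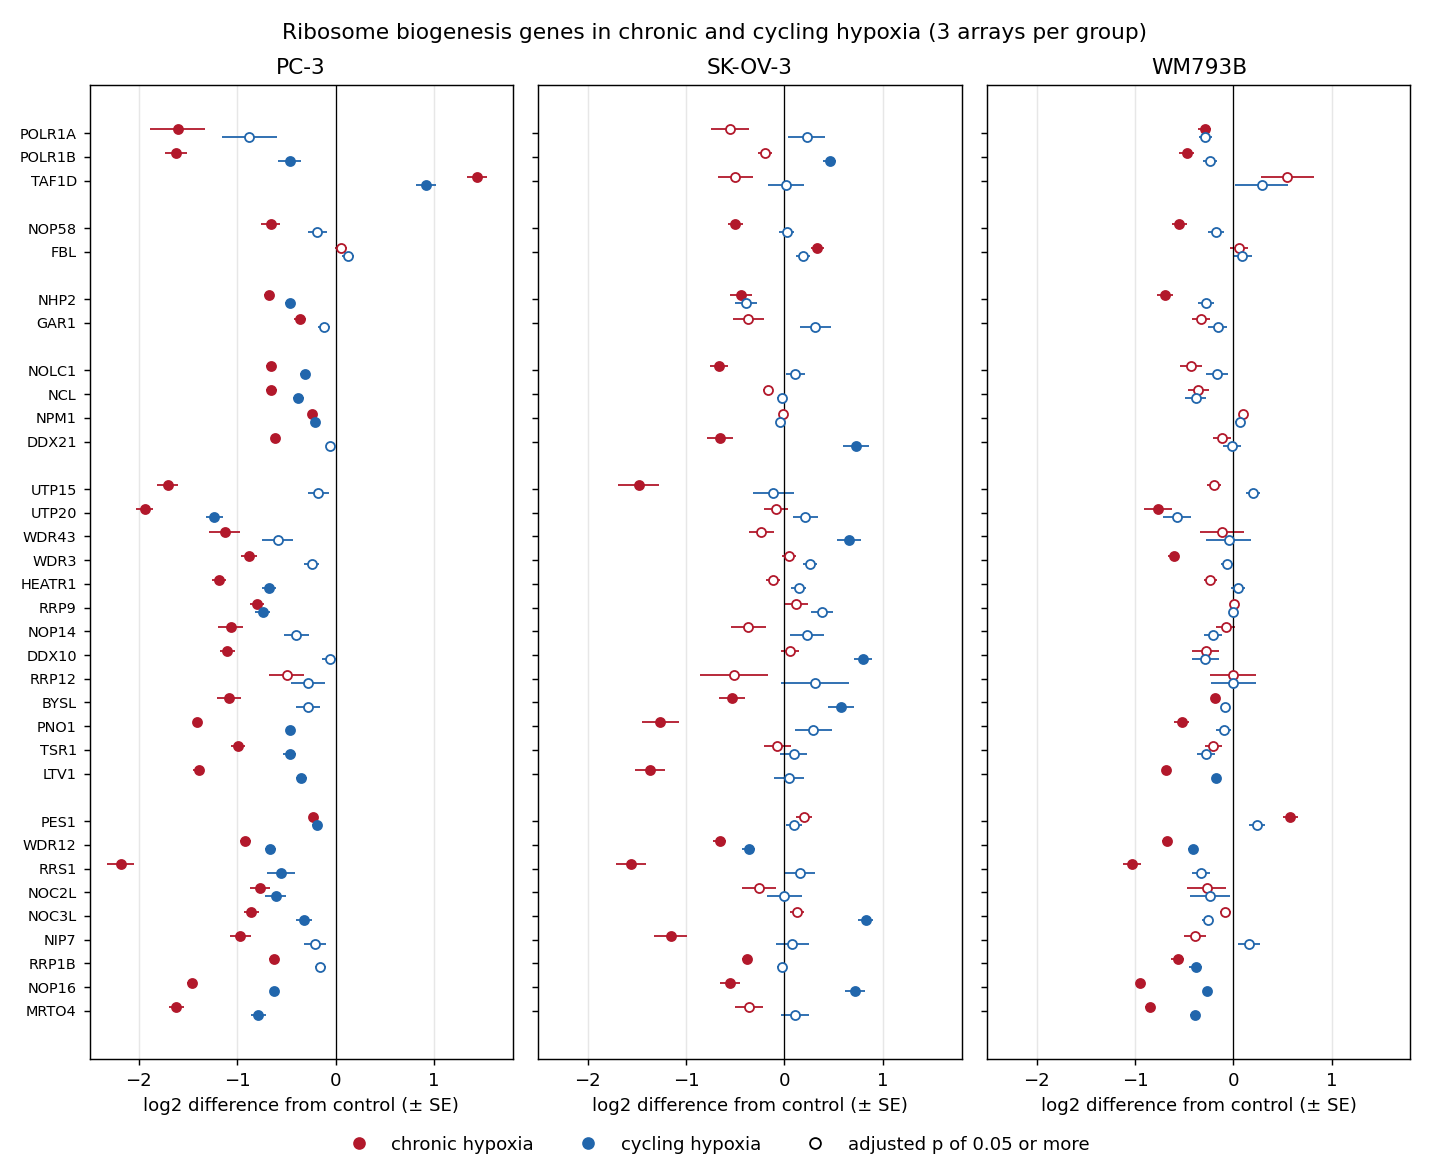
Log2 difference from control, with its standard error, of each of the 33 genes in chronic (red) and cycling (blue) hypoxia, grouped from top to bottom into RNA polymerase I transcription, box C/D and box H/ACA ribonucleoproteins, nucleolar chaperones and regulators, the small subunit processome with 40S maturation, and 60S assembly. Open circles have an adjusted p of 0.05 or more. In PC-3 cells 31 of the 33 chronic values lie left of 0, down to −2.18 for RRS1, and in SK-OV-3 cells 6 of the cycling values do.

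RNA polymerase I transcription was represented by 3 genes. POLR1A and POLR1B encode the largest subunits of the enzyme, and TAF1D is a subunit of the selectivity factor SL1, which places it on the ribosomal promoter. POLR1B read 8.64, 8.79 and 8.69 in control PC-3 cells, 7.02, 6.98 and 7.25 in chronic and 8.45, 8.08 and 8.20 in cycling hypoxia. These 3 groups did not overlap, and the chronic fall was 3.08-fold (log2 −1.62, SE 0.11, adjusted p = 9.46e-05, limma). In SK-OV-3 cells it read 8.52, 8.36 and 8.54 in controls, 8.23, 8.23 and 8.36 in chronic and 8.90, 9.03 and 8.87 in cycling hypoxia. There the cycling arrays stood above all others (log2 0.46 over control, SE 0.07, adjusted p = 0.00842, limma). WM793B cells read 9.27, 9.29 and 9.42 in controls and 8.79, 8.86 and 8.91 in chronic hypoxia, with a mean of 9.09 in cycling hypoxia, and POLR1B fell by 0.48 on the log2 scale in chronic hypoxia (SE 0.07). POLR1A, a dimmer gene, read 5.66, 5.77 and 5.68 in control and 4.43, 4.43 and 3.43 in chronic PC-3 cells, where the chronic arrays lay below the level of 5 (log2 −1.60, SE 0.28, called lower), so the size of this fall is uncertain. It fell by 0.29 in WM793B cells (SE 0.07), and its SK-OV-3 difference was −0.55 (SE 0.19, not called).

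TAF1D moved against the other genes in PC-3 cells. It read 5.13, 5.33 and 5.31 in controls, 6.91, 6.56 and 6.63 in chronic and 6.14, 6.15 and 6.25 in cycling hypoxia. No arrays of different groups overlapped, and the rise was 2.71-fold in chronic (log2 1.44, SE 0.10, adjusted p = 9.70e-05, limma) and 1.89-fold in cycling hypoxia (log2 0.92, SE 0.10, adjusted p = 0.00149, limma). In SK-OV-3 cells it read 6.07, 5.67 and 6.12 in controls and 5.59, 5.19 and 5.58 in chronic hypoxia, a difference of −0.50 (SE 0.18, not called). In WM793B cells it read 6.25, 6.15 and 6.20 in controls and 6.63, 6.36 and 7.26 in chronic hypoxia, where the groups did not overlap but the chronic arrays were spread (difference 0.55, SE 0.27, not called). A single probe set carries the symbol TAF1D alone, and those shared with small RNAs were not read.

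NOP58, a core protein of the box C/D particles, fell by 0.66, 0.50 and 0.55 on the log2 scale in PC-3, SK-OV-3 and WM793B cells under chronic hypoxia (SE 0.10, 0.08 and 0.08). FBL (fibrillarin), the methyltransferase of the same particles, read 10.38, 10.39 and 10.42 in control and 10.43, 10.44 and 10.49 in chronic PC-3 cells, a difference of 0.05 (SE 0.06, not called). In SK-OV-3 cells it read 10.41, 10.52 and 10.69 in controls and 10.90, 10.84 and 10.89 in chronic hypoxia, a rise of 0.33 without overlap (SE 0.07, adjusted p = 0.0191, limma). NHP2 and GAR1 belong to the box H/ACA particles. NHP2 fell in every line, by 0.68, 0.44 and 0.69, and GAR1 fell in PC-3 cells, by 0.36 (SE 0.06). The GAR1 differences were of like size in SK-OV-3 (−0.37) and WM793B cells (−0.33) but were not called.

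Among nucleolar chaperones and regulators, NPM1 (nucleophosmin) and NCL (nucleolin) are abundant nucleolar proteins, NOLC1 is a chaperone of small nucleolar ribonucleoproteins and DDX21 is an RNA helicase. These 4 genes fell in PC-3 cells, NPM1 by 0.24 (SE 0.03), NCL by 0.65, NOLC1 by 0.66 and DDX21 by 0.61. In SK-OV-3 cells NOLC1 and DDX21 fell by 0.66 and 0.66, whereas the difference of NPM1 was −0.01 (SE 0.04). DDX21 read 10.97, 10.99 and 11.12 in control, 10.54, 10.06 and 10.52 in chronic and 11.70, 11.81 and 11.75 in cycling SK-OV-3 cells. Its chronic arrays lay below and its cycling arrays above the controls, the latter by 0.73 (SE 0.13, adjusted p = 0.0178, limma). In WM793B cells none of the 4 was called in either form of hypoxia, and their chronic differences ran from −0.43 for NOLC1 to 0.10 for NPM1.

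The small subunit processome and 40S maturation factors formed the largest group, with 13 genes. Of these 12 fell in PC-3 cells under chronic hypoxia, with a median of −1.10. In WM793B cells 5 fell (median −0.20), where 19.3% of all genes were lower, and 4 fell in SK-OV-3 cells (median −0.24), a share near the 25.7% of all genes. UTP20, a large scaffold protein of the processome, read 7.02, 7.01 and 7.09 in control PC-3 cells, 4.93, 5.29 and 5.08 in chronic and 5.76, 5.84 and 5.82 in cycling hypoxia. The groups were far apart, with a 3.83-fold fall in chronic (log2 −1.94, SE 0.09, adjusted p = 1.70e-05, limma) and a 2.35-fold fall in cycling hypoxia (log2 −1.23, SE 0.09, adjusted p = 0.000266, limma). In SK-OV-3 cells the same probe set read 5.82, 5.82 and 5.47 in controls and 5.57, 5.71 and 5.59 in chronic hypoxia, which overlap (log2 −0.09, SE 0.12, not called). In WM793B cells it read 6.43, 6.47 and 6.09 in controls and 5.48, 5.56 and 5.65 in chronic hypoxia, a fall of 0.77 (SE 0.14, adjusted p = 0.016, limma). UTP20 is dim, and an identical value of 5.82 recurred on arrays of each line. With 1 chronic PC-3 array (4.93) below the level of 5, the size of its PC-3 fall is uncertain. In SK-OV-3 cells 2 controls read 5.82, though other arrays read lower, down to 4.93 in chronic PC-3 cells. A fall in SK-OV-3 cells could thus be seen, but its size would be uncertain at so low a level.

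UTP15, a WD-repeat protein that joins the processome early, read 7.15, 7.26 and 7.36 in control PC-3 cells, 5.45, 5.69 and 5.52 in chronic and 6.93, 7.05 and 7.26 in cycling hypoxia. The chronic arrays alone stood apart, 3.26-fold below control (log2 −1.70, SE 0.11, adjusted p = 5.52e-05, limma) and 2.88-fold below cycling hypoxia (log2 1.53 for cycling over chronic, SE 0.11, adjusted p = 0.000535, limma). SK-OV-3 cells gave the same order, with 7.70, 7.61 and 7.51 in controls, 6.15, 5.85 and 6.38 in chronic and 7.08, 7.75 and 7.66 in cycling hypoxia. The chronic fall there was 2.79-fold (log2 −1.48, SE 0.21, adjusted p = 0.0044, limma). In WM793B cells the controls read 7.38, 7.36 and 7.30 and the chronic arrays 7.24, 7.17 and 7.05, a difference of −0.20 (SE 0.07, not called).

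The regions before the starts of UTP20 and UTP15, which fell, and of TAF1D, which rose, are shown because these genes moved far apart in PC-3 cells. Each is the stretch of 250 bases before the start in RefSeq, build GRCh38.p14, written 5′ to 3′ on the strand of the gene. In UTP20, chr12:101279855-101280104 on the plus strand, capitals mark the E-box CACGTG. In UTP15, chr5:73565493-73565742 on the plus strand, and in TAF1D, chr11:93741496-93741745 on the minus strand, capitals mark ACGTG or GCGTG on either strand, the core letters bound by hypoxia-inducible factors.
UTP20 promoter: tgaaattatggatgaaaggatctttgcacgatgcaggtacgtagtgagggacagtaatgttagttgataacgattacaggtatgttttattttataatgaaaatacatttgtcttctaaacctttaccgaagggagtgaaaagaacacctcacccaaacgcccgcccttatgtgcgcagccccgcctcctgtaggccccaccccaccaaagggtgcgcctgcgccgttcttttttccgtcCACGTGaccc
UTP15 promoter: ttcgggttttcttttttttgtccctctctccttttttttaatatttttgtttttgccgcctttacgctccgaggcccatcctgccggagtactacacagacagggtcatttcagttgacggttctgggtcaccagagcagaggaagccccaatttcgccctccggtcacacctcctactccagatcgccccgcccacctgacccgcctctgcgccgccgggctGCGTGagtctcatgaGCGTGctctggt
TAF1D promoter: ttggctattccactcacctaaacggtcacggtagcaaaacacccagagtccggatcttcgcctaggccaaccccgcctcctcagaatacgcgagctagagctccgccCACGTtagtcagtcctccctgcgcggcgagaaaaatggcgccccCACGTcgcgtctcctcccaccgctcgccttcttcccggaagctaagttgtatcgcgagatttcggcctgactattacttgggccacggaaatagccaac

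Promoters of 32 of the 38 genes were matched in RefSeq, all but those of NOP58, NOLC1, RRP12, BOP1, RRS1 and RRP1B. In the window from 250 bases before to 50 after the start, 11 of the 32 (34.4%) held CACGTG, which reads the same on both strands, against 7.43% of 27305 promoters. In the 250 bases before the start alone, 1 of the 32 (3.12%) and 6.49% of all promoters held it. The core ACGTG or GCGTG overlaps CACGTG, and outside any CACGTG it was found in 23 of the 32 (71.9%) and in 45.2% of all promoters over the longer window. The E-boxes of LTV1, NOC3L, MRTO4 and PNO1, 4 of the genes described below, are shown with 10 bases on either side, the E-box in capitals. They lie at chr6:143843356-143843381, chr1:19251809-19251834 and chr2:68157887-68157912 on the plus strand and, for NOC3L, at chr10:94362905-94362930 on the minus strand.
LTV1 E-box: cctggggctgCACGTGtggtgaggcc
NOC3L E-box: gggacttcggCACGTGtgtcattccc
MRTO4 E-box: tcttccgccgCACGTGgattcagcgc
PNO1 E-box: tgcagctgcgCACGTGtttcagccgg
A match of letters is a description and shows no binding. The 11 genes with an E-box had median chronic differences of −1.08, −0.24 and −0.11 in PC-3, SK-OV-3 and WM793B cells, and the 17 genes read that had a promoter without one had −0.91, −0.37 and −0.29.

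PNO1 and LTV1 act late in 40S maturation. PNO1 read 9.23, 9.17 and 9.57 in control SK-OV-3 cells, 8.11, 7.76 and 8.33 in chronic and 9.73, 9.72 and 9.40 in cycling hypoxia. The chronic arrays lay below all others, and the step from chronic to cycling was 2.94-fold (log2 1.55, SE 0.18, adjusted p = 0.00439, limma). In PC-3 cells it read 9.35, 9.41 and 9.33 in controls, 7.99, 7.97 and 7.90 in chronic and 8.97, 8.85 and 8.86 in cycling hypoxia, without overlap. LTV1 read 8.61, 8.46 and 8.76 in control and 7.32, 6.93 and 7.48 in chronic SK-OV-3 cells, a 2.58-fold fall (log2 −1.37, SE 0.15, adjusted p = 0.00162, limma), while its cycling values, 8.75, 8.58 and 8.64, overlapped with control. Its chronic fall was 2.62-fold in PC-3 and 1.61-fold in WM793B cells, where the controls read 9.54, 9.55 and 9.60 and the chronic arrays 8.82, 8.89 and 8.92.

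HEATR1 and DDX10 behaved differently from line to line. HEATR1, a processome protein also needed for ribosomal RNA transcription, read 8.56, 8.37 and 8.49 in control and 7.17, 7.33 and 7.36 in chronic PC-3 cells, 2.27-fold lower (log2 −1.18, SE 0.07, adjusted p = 4.89e-05, limma). In SK-OV-3 cells the controls read 8.38, 8.56 and 8.66 and the chronic arrays 8.42, 8.38 and 8.47, which overlap. In WM793B cells HEATR1 read 9.76, 9.69 and 9.85 in controls and 9.56, 9.55 and 9.48 in chronic hypoxia, a difference of −0.23 (SE 0.07, not called). DDX10, an RNA helicase, read 6.20, 6.39 and 6.43 in control, 6.23, 6.41 and 6.54 in chronic and 7.11, 7.13 and 7.17 in cycling SK-OV-3 cells. The cycling arrays alone stood out, 1.74-fold above control (log2 0.80, SE 0.09, adjusted p = 0.00316, limma). In PC-3 cells DDX10 lay between 7.86 and 8.06 in controls, read 6.74, 6.96 and 6.91 in chronic hypoxia, 2.15-fold lower, and read 7.87, 7.99 and 7.88 in cycling hypoxia, within the range of the controls. The other called genes of this group, WDR43, WDR3, NOP14, BYSL and TSR1, fell by 0.88 (WDR3) to 1.13 (WDR43) in chronic PC-3 cells. In cycling hypoxia WDR43 and BYSL rose in the SK-OV-3 line, by 0.66 and 0.57. RRP12, the dimmest gene at a mean of 5.02, had a PC-3 difference of −0.50 (SE 0.18, not called). RRP9 read 6.02, 6.25 and 6.21 in control PC-3 cells and was called lower in chronic hypoxia. It read the same value, 5.36, on 16 of the 27 arrays, among them the 3 chronic PC-3 arrays, so the size of its fall is uncertain.

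**Figure D3:**
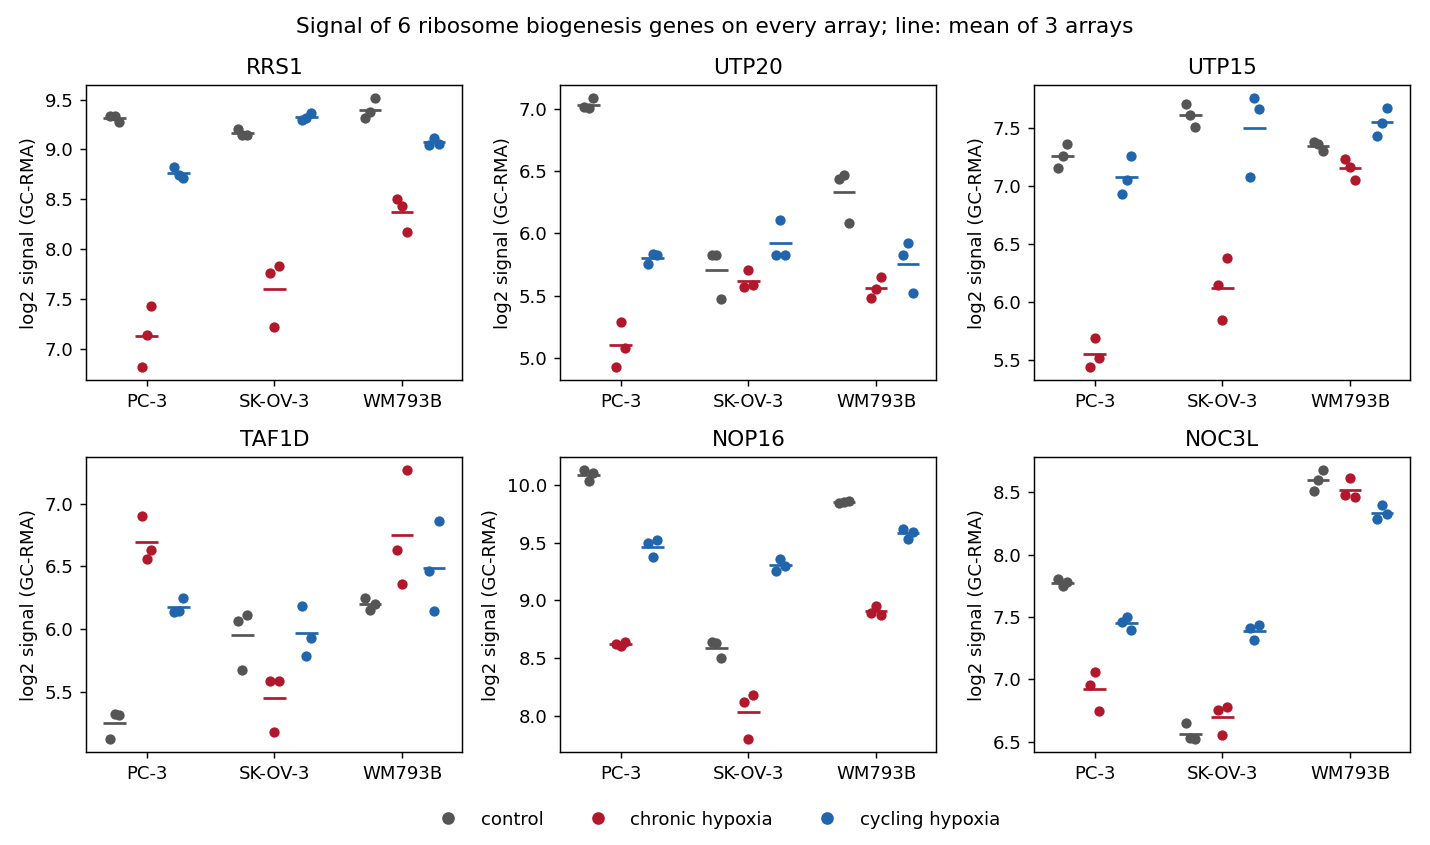
Log2 signal of 6 genes on every array, with control in grey, chronic hypoxia in red and cycling hypoxia in blue and a line at the mean of the 3 arrays. RRS1 and UTP15 lay lowest in chronic hypoxia in each line, TAF1D lay highest in chronic hypoxia in PC-3 cells, and NOC3L and NOP16 lay highest in cycling hypoxia among the SK-OV-3 arrays. Each panel has its own axis, and levels of different genes are not comparable.

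Of the 60S assembly factors, the 9 genes read fell in PC-3 cells under chronic hypoxia, with a median of −0.91. RRS1, which helps to bring 5S ribosomal RNA into the growing particle, had the largest chronic fall of the 33 genes in each line. It read 9.33, 9.34 and 9.28 in control PC-3 cells, 6.82, 7.14 and 7.43 in chronic and 8.82, 8.75 and 8.71 in cycling hypoxia. The chronic fall was 4.55-fold (log2 −2.18, SE 0.14, adjusted p = 6.68e-05, limma), and cycling lay 3.09-fold above chronic hypoxia (SE of log2 0.14, adjusted p = 0.00108, limma). In SK-OV-3 cells RRS1 read 9.20, 9.15 and 9.15 in controls, 7.76, 7.22 and 7.83 in chronic and 9.30, 9.32 and 9.36 in cycling hypoxia. There the chronic fall was 2.95-fold (log2 −1.56, SE 0.15, adjusted p = 0.00101, limma), and cycling lay 3.29-fold above chronic hypoxia (log2 1.72, SE 0.15, adjusted p = 0.00174, limma). In WM793B cells it read 9.31, 9.38 and 9.51 in controls, 8.50, 8.44 and 8.17 in chronic and 9.05, 9.12 and 9.05 in cycling hypoxia. The groups did not overlap, and the chronic fall was 2.04-fold (log2 −1.03, SE 0.10, adjusted p = 0.00151, limma). Between cycling and chronic hypoxia the WM793B difference was 0.70 (SE 0.10, adjusted p = 0.0199, limma), and the adjusted p was 0.0725 with the replicate number as a block. It was 0.0764 without cycling replicate 1, 0.0807 without cycling replicate 2 and 0.0575 without chronic replicate 2.

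NOP16 and MRTO4 take part in the assembly of the pre-60S particle. NOP16 read 10.12, 10.03 and 10.10 in control, 8.62, 8.60 and 8.64 in chronic and 9.50, 9.37 and 9.52 in cycling PC-3 cells. In WM793B cells it read 9.84, 9.85 and 9.86 in controls, 8.89, 8.95 and 8.87 in chronic and 9.62, 9.53 and 9.59 in cycling hypoxia. The 3 groups were apart in both lines, and the chronic fall was 2.76-fold in PC-3 (log2 −1.46, SE 0.04, adjusted p = 4.43e-06, limma) and 1.93-fold in WM793B cells (log2 −0.95, SE 0.03, adjusted p = 9.57e-05, limma). The WM793B step from chronic to cycling hypoxia was 0.67 (SE 0.03, adjusted p = 0.00125, limma). With the mean of all its probe sets NOP16 was not called in WM793B cells, either in chronic hypoxia (adjusted p = 0.0557, limma) or between cycling and chronic hypoxia (0.152), and the latter was not called with an intensity trend and robust variances (0.208). In SK-OV-3 cells NOP16 read 8.64, 8.63 and 8.50 in controls, 8.12, 7.80 and 8.18 in chronic and 9.26, 9.36 and 9.30 in cycling hypoxia, below control in the former by 0.55 and above it in the latter by 0.72. Another, dimmer probe set of NOP16 averaged 3.45 in cycling and 4.91 in chronic PC-3 cells, and was called in the opposite direction (log2 −1.47, adjusted p = 0.0345, limma) to the 0.84 of the brightest. MRTO4 read 9.02, 9.06 and 8.99 in control and 7.44, 7.23 and 7.55 in chronic PC-3 cells, a 3.07-fold fall. In WM793B cells it read 8.53, 8.52 and 8.40 in controls, 7.72, 7.61 and 7.57 in chronic and 8.09, 8.12 and 8.07 in cycling hypoxia, without overlap. These were falls of 0.85 in chronic (SE 0.05, adjusted p = 0.000459, limma) and 0.39 in cycling hypoxia (SE 0.05, adjusted p = 0.0153, limma). The cycling call was lost without any one of the 3 cycling arrays or without control replicate 1 or 2, where the largest adjusted p was 0.0623.

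WDR12 and PES1 belong with BOP1 to the PeBoW complex, which is needed to process the ribosomal RNA precursor of the 60S subunit. WDR12 was lower in each line under both forms of hypoxia. Its WM793B values were 10.27, 10.36 and 10.45 in controls, 9.64, 9.73 and 9.69 in chronic and 9.92, 9.94 and 10.00 in cycling hypoxia, without overlap (cycling against control log2 −0.41, SE 0.05, adjusted p = 0.0111, limma). PES1 fell by 0.22 in PC-3 cells (SE 0.05) and rose in WM793B cells, from 7.83, 7.85 and 7.64 in controls to 8.40, 8.45 and 8.21 in chronic hypoxia (log2 0.58, SE 0.08, adjusted p = 0.00548, limma).

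NOC3L, a partner of NOC2L in moving pre-60S particles through the nucleolus, read 6.65, 6.53 and 6.52 in control, 6.75, 6.55 and 6.78 in chronic and 7.41, 7.32 and 7.44 in cycling SK-OV-3 cells. As for DDX10, the cycling arrays stood above both other groups, 1.77-fold over control (log2 0.82, SE 0.07, adjusted p = 0.00116, limma). In PC-3 cells NOC3L fell, by 0.86 in chronic and by 0.32 in cycling hypoxia (SE 0.08). NIP7, a late factor of the particle, fell by 0.97 in PC-3 and by 1.16 in SK-OV-3 cells under chronic hypoxia, and its WM793B difference was −0.39 (SE 0.11, not called). NOC2L and RRP1B fell by 0.77 and 0.62 in chronic PC-3 cells. Beyond the probe sets used, 21 further ones of the same genes averaged at least 5. Under chronic hypoxia 15 of them were lower in PC-3 cells and 7 in either other line, and none was higher. Of all genes 41.2%, 25.7% and 19.3% were lower in PC-3, SK-OV-3 and WM793B cells, so the SK-OV-3 count was not far from that share. The sign was that of the probe set used for 17, 16 and 18 of the 21.

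Whether a response differed between the lines was tested as an interaction of line and condition over all 27 arrays. The chronic response differed for 25 of the 33 genes, where 68.9% of all genes did, and the cycling response for 21, where 48.4% did. Set against PC-3 cells, the chronic response was more positive in SK-OV-3 cells for 20 genes and more negative for 1, with a median difference of 0.49. In WM793B cells it was more positive for 21 and more negative for 1, with a median of 0.70. Between the latter lines the chronic responses differed both ways, 7 more positive and 4 more negative in WM793B cells. Shares of all genes by direction were not counted for these pairs. The chronic median of all genes was itself lower in PC-3 cells (−0.15) than in SK-OV-3 (−0.06) and WM793B cells (−0.04). The smallest adjusted p values of the chronic interaction belonged to POLR1B (9.31e-08), HEATR1 (1.53e-07) and UTP20 (3.10e-07, all by limma). The UTP20 response was 1.85 higher in SK-OV-3 than in PC-3 cells (SE 0.17) and 1.17 higher in WM793B than in PC-3 cells (SE 0.17). The low level of UTP20 in control SK-OV-3 cells limits the reading of the former. The responses of POLR1B and HEATR1 were 1.42 (SE 0.13) and 1.07 (SE 0.10) higher in SK-OV-3 than in PC-3 cells. For TAF1D the same difference was −1.94 (SE 0.28).

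In cycling hypoxia POLR1B, NOC3L and NOP16 were lower in PC-3 and higher in SK-OV-3 cells, a pattern of 2.30% of all genes, and the interaction was called for all 3. Their responses were 0.93 (SE 0.13), 1.15 (SE 0.10) and 1.34 (SE 0.10) higher in SK-OV-3 than in PC-3 cells. Over the 33 genes, the cycling response was more positive in SK-OV-3 than in PC-3 cells for 20 and more negative for 1. It was more negative in WM793B than in SK-OV-3 cells for 12 and more positive for none. Shares of all genes by direction were not counted here either. The cycling medians of all genes were −0.03, 0.01 and 0.02 in PC-3, SK-OV-3 and WM793B cells.

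In control cells the lines differed in the level of many of these genes. Between PC-3 and SK-OV-3 cells 11 were higher in PC-3 and 9 lower, where 78.0% of all genes differed. Between WM793B and PC-3 cells 12 were higher in WM793B and 10 lower (74.4% of all genes differed), and between WM793B and SK-OV-3 cells 15 were higher in WM793B and 8 lower (78.5%). The 20, 22 and 23 genes called of 33 were thus no larger a share than that of all genes. NOC3L had control means of 8.60 (WM793B), 7.78 (PC-3) and 6.57 (SK-OV-3). Each neighbouring pair differed beyond its spread, and the outer difference was 4.08-fold (log2 2.03, SE 0.07, adjusted p = 4.94e-15, limma). DDX10 followed another order, PC-3 (7.97), WM793B (7.62) and SK-OV-3 (6.34), again with each pair apart, and PC-3 lay 3.10-fold above SK-OV-3 cells (log2 1.63, SE 0.11, adjusted p = 9.69e-11, limma). The control levels of RRS1 and FBL were not called different between any lines, and the widest differences were 0.24 (SE 0.13, WM793B over SK-OV-3) and −0.14 (SE 0.08, PC-3 over SK-OV-3).

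Genes of the same pathway outside the list were read as well, in 5 further lists. In PC-3 cells under chronic hypoxia 6 of 12 other RNA polymerase I genes, 11 of 12 other small nucleolar ribonucleoprotein genes and 39 of 42 other 40S genes were lower and none higher. Of 48 other 60S genes 37 were lower and 2 higher, and of 14 exosome and nuclease genes 11 were lower and 1 higher. Of all genes 41.2% were lower and 24.7% higher. The medians ran from −0.73 for the 40S genes to −0.35 for the RNA polymerase I genes. The largest falls were those of EXOSC2 (−2.01), a cap subunit of the RNA exosome, UTP14A (−1.90), a processome protein, and MDN1 (−1.68), a large ATPase of 60S assembly. In SK-OV-3 cells 3, 2, 14, 20 and 7 genes of these lists, in the same order, were lower and 2, 0, 3, 4 and 1 higher, with medians from −0.34 to −0.13. Of all genes 25.7% were lower and 20.3% higher there, so the first 2 lists held no larger share of falls. In WM793B cells 3, 4, 8, 9 and 7 were lower and 0, 0, 2, 6 and 1 higher, with medians from −0.41 to −0.10. The 40S and 60S lists there held about the share of all genes that were lower, 19.3%. Under cycling hypoxia the medians were −0.24 to −0.14 in PC-3 and 0.06 to 0.27 in SK-OV-3 cells.

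Ribosomal proteins are the parts that these factors assemble. Of 79 listed genes 53 had a probe set of their own. In chronic PC-3 cells 13 were higher and 5 lower with a median of 0.03, where 24.7% of all genes were higher, about the same share, and 41.2% lower. The largest called difference was a rise of 0.54 for RPL34 (SE 0.05). In SK-OV-3 cells 1 was higher and 18 lower in chronic hypoxia (median −0.07), and 1 higher and 17 lower in cycling hypoxia (median −0.14), where the ribosome biogenesis genes had a median of 0.16. The shares of all genes lower there were 25.7% and 14.4%. RPS12 fell there by 0.49 in chronic and by 0.42 in cycling hypoxia (SE 0.04). In WM793B cells 2 were higher and 3 lower in chronic hypoxia, with a median of −0.02, where 15.5% of all genes were higher and 19.3% lower. RPLP2 stood apart in PC-3 cells under cycling hypoxia, with a difference of −2.58 and a large SE of 0.66 (adjusted p = 0.0433, limma).

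**Figure D4:**
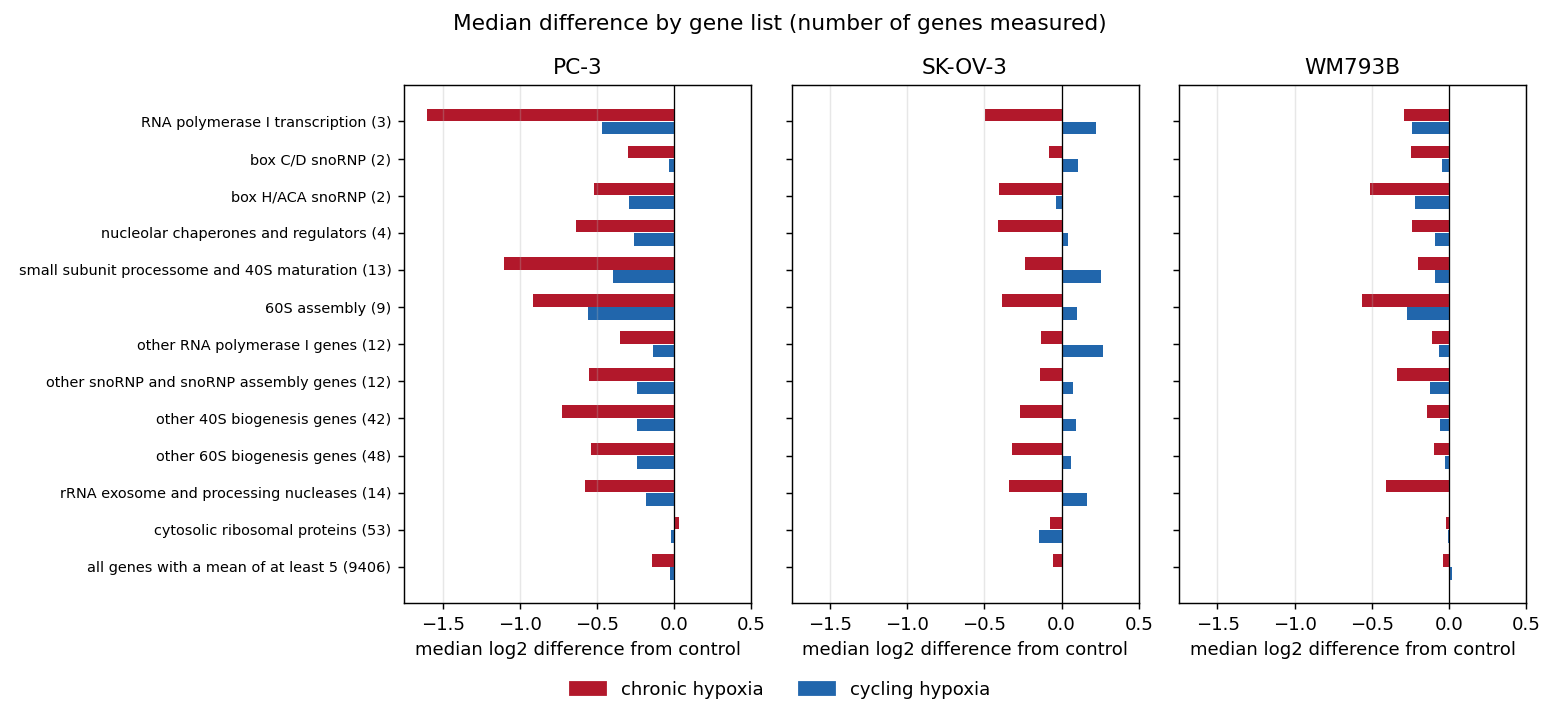
Median log2 difference from control of each group of ribosome biogenesis genes (top 6), of the other genes of the pathway, of ribosomal proteins and of all genes with a mean of at least 5, in chronic (red) and cycling (blue) hypoxia, with the number of genes read in brackets. In PC-3 cells each group of biogenesis genes lies below all genes (−0.15) in chronic hypoxia, with −1.10 for the 13 small subunit genes, whereas the ribosomal proteins lie at 0.03.

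MYC and MXI1, an antagonist that competes with it for the partner MAX and is known to be induced by hypoxia, were read on the same arrays. MXI1 rose in chronic hypoxia in each line, from 8.59 to 10.23 in PC-3 (log2 1.64, SE 0.06), from 10.40 to 11.69 in SK-OV-3 (1.29, SE 0.05) and from 9.25 to 10.58 in WM793B cells (1.33, SE 0.12). In cycling hypoxia its means were 8.93, 10.60 and 9.39, lower than in chronic hypoxia by 1.29, 1.09 and 1.19. MYC rose in PC-3 cells, by 0.59 in chronic and 0.42 in cycling hypoxia (SE 0.04), and in SK-OV-3 cells, by 1.20 and 1.41 (SE 0.10). In WM793B cells its means were 8.16, 7.63 and 7.48 in control, chronic and cycling cells, and its differences of −0.53 and −0.68 were not called (SE 0.19). MXD1, another partner of MAX, rose by 3.20 in PC-3 (SE 0.09) and fell by 2.50 in SK-OV-3 cells (SE 0.08) under chronic hypoxia. Of 7 genes of this network that were read, PC-3 cells had 4 higher and 1 lower under chronic hypoxia, SK-OV-3 cells 3 and 1, and WM793B cells 4 and none. In the same order of lines 24.7%, 20.3% and 15.5% of all genes were higher and 41.2%, 25.7% and 19.3% lower. The part of the network genes in the changes of the ribosome biogenesis genes was not tested.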

How the data were processed

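Total RNA of 27 cultures was hybridized to Affymetrix arrays. The authors processed the scans with GC-RMA (the gcrma package), which corrects background by probe sequence, normalizes between arrays and summarizes each of 54675 probe sets, and deposited log2 values. The number of arrays limits the precision. Symbols came from the platform annotation at GEO, in which 41097 probe sets carried 1 symbol, 1801 several (not used) and 11777 none. Each gene was represented by whichever of its probe sets had the highest mean over all arrays. Each line was fitted by itself with limma 3.58.1 (R 4.3.3) on 9 arrays and all probe sets, with Benjamini-Hochberg adjustment per comparison and a threshold of 0.05. The level of 5 on the log2 scale was chosen here and is not the noise level of the study, which appears to be on a linear scale. Interactions and control levels came from 1 fit of all 27 arrays. The test was checked on simulated data with independent noise on each array, which does not cover arrays that deviate together, as those of WM793B did. P values measure the spread between cultures of a line.

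The genes and lists were chosen with earlier results of these data known, so no test was made over a list. Full values are given for the 3 largest called chronic differences of each line, the 2 largest of either other comparison, the 3 smallest p values of the chronic interaction and the 2 widest control differences. FBL, PES1 and DDX21 were added after their values were seen, and POLR1A and RRP9, given with values by array, also lie outside this rule. The study's variation filter kept 19800 probe sets and 26 of the 33 genes, and was used as an alternative. The lowest correlation between replicate arrays was 0.994. Deviations of same-numbered WM793B arrays correlated at 0.108 to 0.319 between control and cycling and at 0.170 to 0.253 between chronic and cycling hypoxia. In the other 7 comparisons at least 1 correlation was under 0.1. The main tests, those of WM793B cells included, did not pair arrays by number, and a fit with the number as a block was run as an alternative. Other alternatives changed the probe set summary, normalization, variance model, arrays fitted and rule for a call, and centring on the genes with a mean of at least 5 was chosen after seeing the data.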

Additional observations from a re-analysis of the deposited data

Results flagged for a closer look

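The interaction of cell line and chronic hypoxia was called for each of the 13 genes picked by the rule for full values (limma, adjusted p). That rule took the largest called differences and, for 3 genes, the smallest p values of this interaction, so such calls were likely in advance. Of the genes given by array outside the rule, POLR1A, RRP9, PES1 and DDX21 were also called in both responses, and FBL in neither. The adjusted p was 9.31e-08 for POLR1B, 1.53e-07 for HEATR1, 3.10e-07 for UTP20, 6.12e-07 for NOC3L, 1.88e-06 for NOP16, 3.48e-06 for MRTO4 and 1.46e-05 for UTP15. It was 1.60e-05 for DDX10, 7.30e-05 for TAF1D, 0.000307 for RRS1, 0.000479 for LTV1, 0.000671 for PNO1 and 0.0345 for WDR12. The response to cycling hypoxia differed for 10 of them, with an adjusted p of 2.40e-08 for NOP16, 1.10e-07 for NOC3L, 1.11e-05 for HEATR1, 1.95e-05 for UTP20, 5.55e-05 for POLR1B and 5.91e-05 for DDX10. It was 0.000419 for MRTO4, 0.00843 for PNO1, 0.0226 for WDR12 and 0.0266 for RRS1. Such differences were common among all genes (68.9% in chronic and 48.4% in cycling hypoxia), and the lines also differed in medium.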

How the results depend on the processing

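No count or median of the genes and no named difference changed direction under the alternatives run, and a filter at a mean of 5 and median centring moved no count beyond 1.5 times. The WM793B counts were the least stable. An intensity trend with robust variances left 6 genes called in WM793B chronic hypoxia and 0 in both WM793B cycling comparisons, where WDR12, MRTO4, RRS1 and NOP16 lost their calls. In 1 fit of all 27 arrays the WM793B cycling counts were 9 against control and 13 against chronic hypoxia, and with the compared groups alone they were 3 and 4, with 9 for SK-OV-3 chronic hypoxia. With the replicate number as a block, 4 genes were called in SK-OV-3 cycling hypoxia and 5 between WM793B cycling and chronic hypoxia. In WM793B cycling hypoxia against control the count stayed at 5, with POLR1B gained and RRP1B lost, and no other count moved beyond 1.5 times. Requiring an F-test over the conditions and at least 2-fold left 15, 1 and 5 genes in the chronic, cycling and cycling against chronic comparisons of PC-3 cells, 5, 0 and 8 in SK-OV-3 and 1, 0 and 0 in WM793B cells. Shares of all genes under this rule were not counted. The mean of all probe sets gave medians of −0.66, −0.28 and 0.37 in PC-3 cells, 0.51 for SK-OV-3 cycling against chronic hypoxia and −0.11 for WM793B cycling hypoxia, where 1 gene was called. NOP16 in WM793B cells and MRTO4 in WM793B cycling hypoxia then lost their calls. The study's filter, which drops genes that vary little, gave medians of −1.07 and 0.65 for PC-3 chronic and cycling against chronic hypoxia, −0.47 and 0.72 for SK-OV-3 and 0.22 for WM793B cycling against chronic hypoxia. Another quantile normalization gave −0.85, 0.45 and, for WM793B chronic hypoxia, −0.24, and centring on the genes with a mean of at least 5 gave −0.76, 0.41 and −0.24, with 0.10 for WM793B cycling against chronic hypoxia. Apart from these constructions, the cause was not tested. Leaving out 1 array gave counts of 31 to 32, 15 to 21 and 19 to 24 in the chronic, cycling and cycling against chronic comparisons of PC-3 cells, 9 to 13, 5 to 9 and 15 to 18 in SK-OV-3 and 13 to 16, 2 to 6 and 3 to 8 in WM793B cells. The medians then ran from −0.97 to −0.88, −0.37 to −0.34 and 0.52 to 0.56 in PC-3, from −0.44 to −0.33, 0.13 to 0.18 and 0.51 to 0.63 in SK-OV-3, and from −0.36 to −0.27, −0.23 to −0.12 and 0.12 to 0.19 in WM793B cells. The counts of called interactions ran from 24 to 26 in chronic and from 18 to 23 in cycling hypoxia.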
